A study of Sus scrofa with 6 samples.

Results

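Cytokines, chemokines, their receptors and genes induced by TNF were represented by 88 probe sets on the Affymetrix Porcine Genome Array, which stand for 75 genes. They were chosen by a rule on gene symbols, which was set with earlier results of these data known. It took probe sets whose single symbol is that of a CC or CXC chemokine (CCL, CXCL) or a chemokine receptor (CCR, CXCR). It also took interleukins and their receptors (IL), TNF, and TNF ligands, receptors and induced genes (TNFSF, TNFRSF, TNFAIP). LIF, CSF2, CSF3, NFKBIA and SOCS3 were taken by name. The 88 probe sets are part of 23999 probe sets tested, of which 10069 carry 1 gene symbol. All 88 probe sets matched RefSeq by gene ID with the same symbol. OSMR, CSF1 and IL6ST are not analysed here.

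The arrays were hybridized with total RNA from the left ventricular (LV) free wall of 6 Large White piglets, 1 animal per array. At 8 days of age, 3 piglets received a single intravenous injection of 2.0 mg/kg doxorubicin (Dox), an anthracycline used against tumours and known for its toxicity to heart muscle, and 3 control piglets were injected with PBS. The LV myocardium was taken 3 weeks later, at 28 days of age. The dose and ages are those of the sample labels, and the methods of the study give others. The comparison asked how transcript levels in the LV differed between Dox-injected and PBS-injected piglets.

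Cytokines are small secreted proteins that immune and stromal cells use to signal to each other. Chemokines are cytokines that draw leukocytes into a tissue through G protein-coupled receptors, with CC members acting mainly on monocytes, lymphocytes and eosinophils and many CXC members on neutrophils or lymphocytes. TNF and IL1 family receptors signal through NF-kappaB, whose inhibitor NFKBIA is itself an NF-kappaB target, and IL6 family receptors signal through JAK and STAT proteins, with SOCS3 as a feedback inhibitor.

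The MAS5 signal of a probe set is a linear intensity. Its noise level was read from 17 Tag control probe sets, which have no pig target. The highest Tag signal was 2.5, 6.3 and 4.2 on PBS arrays 1 to 3 and 5.5, 3.6 and 3.1 on Dox arrays 1 to 3, and a signal above it is called above the Tag range. On a single array, 45 to 57 of the 88 member probe sets lay above it. The median signal over the whole array was 16.9 to 17.9 in the PBS group and 13.6 to 15.7 in the Dox group. The ratio of the 3′ to the 5′ probe set of actin was 1.96 to 2.63 in the PBS group. On Dox arrays 1 to 3 it was 6.04, 3.96 and 2.2. For GAPDH the ratio was 1.18 to 1.68 in the PBS group and 2.93, 1.33 and 1.24 on Dox arrays 1 to 3. Dox array 3 had the lowest correlations with the other arrays, 0.887 to 0.926. All 11 cardiomyocyte marker genes on the array were above the Tag range, with a summed signal of 50265 to 61082 on the PBS arrays and 60686 to 78973 on the Dox arrays. As scaled by the authors, 10 of the 11 were higher in the Dox group. Under quantile normalization 2 were higher, and under cyclic loess normalization 6, so no direction is given for them.

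Many of the members gave signals at the noise level in this tissue. Of the 88 probe sets, 36 (40.9%) were above the Tag range on all 6 arrays, against 58.4% of all probe sets tested and 68.4% of the probe sets with 1 gene symbol. A further 16 (18.2%) were above it on 3 to 5 arrays and 15 (17.0%) on 1 or 2 arrays. The remaining 21 (23.9%) were within the Tag range on all 6 arrays, against 15.2% of all probe sets tested.

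By gene, 33 of the 75 had a probe set above the Tag range on all 6 arrays, 45 had one above it on 3 or more, and for 17 every probe set lay within it on all 6. The 33 genes included the chemokines CCL2, CCL4, CCL5, CCL14, CCL21, CCL24, CXCL2, CXCL12 and CXCL16. They also included the receptors CCR1, CXCR4, IL1R1, IL4R, IL11RA, TNFRSF1A and TNFRSF1B, and the ligands IL15, IL16, IL18 and IL34. The T cell cytokines IL2, IL4, IL13, IL17A and IL21 were within the Tag range on all 6 arrays, as were IL7 and its receptor IL7R, both chains of IL12 (IL12A and IL12B), the granulocyte-macrophage factor CSF2 and the IL6 receptor IL6R. A signal within the Tag range gives no level, and the absence of these transcripts was not shown.

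**Figure D1:**
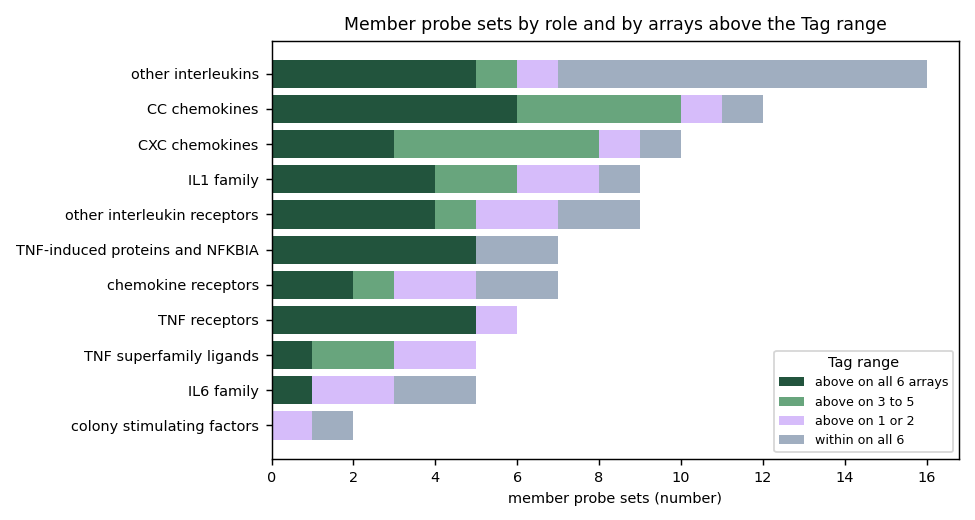
The bars give the number of member probe sets in each role (vertical axis) by the number of arrays on which the signal was above the Tag range (colours). All CC chemokine probe sets but CCL3L1 and CCL28 were above it on 3 or more arrays, whereas 10 of the 16 probe sets of the other interleukins and both of the colony stimulating factors were not.

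No member met the threshold, which asked for at least a 2-fold difference with a Benjamini-Hochberg adjusted p no higher than 0.05 in limma over 23999 probe sets, and the share called over the whole array was 0%. The smallest adjusted p was 0.428 over the whole array and 0.521 among the members. The methods' t-test called no member either. At an unadjusted limma p of at most 0.05, 10 of 88 member probe sets (11.4%) passed, against a background of 9.54% of all probe sets. In the Dox group, 4 of them were higher (background 3.62%) and 6 were lower (background 5.92%). At this rule the shares of the members are near those of the whole array in both directions.

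With a fold of at least 2 required as well, 9 member probe sets (10.2%) passed, against 5.65% of all probe sets, with 4 (4.55%) higher (background 2%) and 5 (5.68%) lower (background 3.65%) in the Dox group. The 9 include CCL25 and CCL27, which were above the Tag range in the Dox group alone, and IL12A and IL21, which were within it throughout. Quantile normalization changed this split to 6 higher and 2 lower, whereas cyclic loess normalization gave 4 higher and 4 lower. The signals of the groups did not overlap for 15 member probe sets (17%; background 16.3%), of which 8 were higher (background 6.19%) and 7 lower (background 10.1%) in the Dox group. None of the differences described below passed the adjusted threshold, and directions below are those of the measured signals. An exact two-sided permutation test of 3 against 3 arrays cannot give a p below 0.1.

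The members as a whole had a median near that of all named genes. With 1 probe set per gene, the median log2 difference, Dox minus PBS, over all 75 member genes was -0.07, against -0.07 over the 6765 named genes, and 44% of both were higher in the Dox group. Over the 45 member genes above the Tag range on at least 3 arrays the median was -0.13, against -0.07 for 5863 named genes with the same limit, and it turned to 0.016 under quantile and 0.0043 under cyclic loess normalization. The median over all probe sets itself was -0.10 as scaled by the authors and -0.01 after quantile normalization.

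Among the CC chemokines, CCL2 was higher on every Dox array than on any PBS array, with 1 Dox array far above the others. CCL2, also known as MCP-1, attracts monocytes. Its signal was 284.5, 266.4 and 237.6 on PBS arrays 1 to 3 and 379.4, 369.0 and 2060.0 on Dox arrays 1 to 3. Dox arrays 1 and 2 lay close to the PBS group, whereas Dox array 3 did not. The log2 difference was 1.33 ± 0.59 (SE, n = 3 per group), with an adjusted p of 0.523 in limma and an exact p of 0.1. Without Dox array 3 it was 0.51. RNA from the whole LV wall holds many cell types, so a difference in the number of cells that make a transcript and a difference in RNA per cell cannot be told apart.

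CCL8, a monocyte chemokine whose gene lies near CCL2 with 1 coding gene between in RefSeq (Sscrofa11.1), did not share this pattern. Its signal was 22.4, 23.5 and 32.8 on the PBS arrays and 10.9, 64.9 and 3.0 on the Dox arrays. Dox array 3, the highest for CCL2, was the lowest for CCL8 and lay within its Tag range there.

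CCL5, or RANTES, draws T cells and monocytes. Its signal was 28.3, 23.5 and 32.8 on the PBS arrays and 22.7, 9.0 and 12.6 on the Dox arrays. All 3 Dox arrays were below all PBS arrays, Dox array 1 by less than the spread of the PBS group. On the log2 scale, Dox minus PBS was -1.03 ± 0.41 (SE, n = 3 per group), with an adjusted p of 0.521 in limma and an exact p of 0.1, and it ranged from -1.39 to -0.72 when each array was left out in turn.

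CCL25 and CCL27 were near the noise level. CCL25 is the ligand of CCR9 and is known for drawing lymphocytes to the thymus and gut, and CCL27 draws T cells to the skin. The signal of CCL25 was 0.4, 0.4 and 2.6 on the PBS arrays and 7.0, 4.2 and 4.6 on the Dox arrays. The signal of CCL27 was 0.8, 4.9 and 1.8 on the PBS arrays and 9.2, 10 and 7.2 on the Dox arrays. Both were within the Tag range on all PBS arrays and above it on all Dox arrays, so only a bound can be given, taken against the higher of the signal and the highest Tag signal of each PBS array. CCL25 was at least 1.27-fold higher in the Dox group, with geometric means of 0.747 and 5.13 as measured, and CCL27 at least 2.16-fold higher, with geometric means of 1.92 and 8.72. Their adjusted p was 0.521 in limma. These 2 probe sets passed the limit of 3 arrays above the Tag range through the Dox group alone, so a difference between the groups was built into their selection.

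The lymphoid chemokines CCL21 and CCL19 share the receptor CCR7 and are neighbouring genes. CCL21 had signals of 27.1, 35.2 and 31.1 on the PBS arrays and 36.6, 12 and 12.1 on the Dox arrays. CCL19 had signals of 34.1, 19.3 and 14 on the PBS arrays and 19.2, 17.2 and 1.3 on the Dox arrays. Both groups overlapped, and Dox array 3 lay within the Tag range for CCL19. CCL4, also called MIP-1 beta, had its highest signal, 145.1, on Dox array 3 and its lowest, 31.8, on Dox array 1. Its PBS signals lay between, at 51.0 to 83.8. CCL14 differed by -0.21 and the eosinophil chemokine CCL24 by -0.58 on the log2 scale, with overlapping groups. Without Dox array 3 these values were -0.05 and 0.06, so the direction of CCL24 turned.

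Among the CXC chemokines, CXCL2 attracts neutrophils through CXCR2. Its signal was 45.3, 164.3 and 97.4 on the PBS arrays and 160.2, 551.8 and 150.6 on the Dox arrays. Dox array 2 was far above the rest, while Dox arrays 1 and 3 lay just below the highest PBS array, so that the groups overlapped. Dox minus PBS on the log2 scale was 1.4 ± 0.59 (SE, n = 3 per group), with an adjusted p of 0.521 in limma and an exact p of 0.3, and it was 0.79 to 1.84 with each array left out. CXCL8 also acts on neutrophils, and 4 coding genes lie between it and CXCL2. The CXCL8 signal was above the Tag range on Dox array 3 only, at 9.7, with 0.5 to 2.5 on all other arrays.

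CXCL12 had a lower signal in the Dox group at both of its probe sets. CXCL12, or SDF-1, is made by stromal cells and binds CXCR4. The brighter read 63.8, 31.7 and 46.4 on the PBS arrays and 40.5, 12.7 and 4.3 on the Dox arrays. The dimmer read 8.4, 16.1 and 18.1 on the PBS arrays and 11.5, 2.8 and 2.2 on the Dox arrays, the last 2 within the Tag range. At both, Dox arrays 2 and 3 were below every PBS array and Dox array 1 was inside the PBS range. The log2 differences were -1.80 ± 0.73 and -1.70 ± 0.68 (SE, n = 3 per group), with adjusted p-values of 0.521 in limma and exact p-values of 0.2. Without Dox array 3 they were -1.0 and -1.25.

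CXCR4, the receptor of CXCL12, had signals of 98.5, 47.0 and 61.1 on the PBS arrays and 42.6, 29.5 and 48.9 on the Dox arrays. The groups overlapped only in Dox array 3, which lay just above PBS array 2. The log2 difference was -0.73 ± 0.35 (SE, n = 3 per group), with an adjusted p of 0.539 in limma and an exact p of 0.2, and it was -0.44 without PBS array 1.

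CXCL9, an interferon gamma-induced ligand of CXCR3 on T cells, was dim. Its signal was 7.2, 15.9 and 10.1 on the PBS arrays and 6.1, 6.2 and 0.9 on the Dox arrays. The groups did not overlap, and Dox array 3 lay within the Tag range. On the log2 scale, Dox minus PBS was -1.70 ± 0.79 (SE, n = 3 per group), with an adjusted p of 0.534 in limma and an exact p of 0.1, and it was -0.77 without Dox array 3. Its inducer IFNG lay within the Tag range on all 6 arrays.

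The other CXC members were CXCL13, which attracts B cells, CXCL14 and CXCL16. The brighter CXCL13 probe set read 5.0 to 11.7 on the PBS arrays and 0.8 to 8.7 on the Dox arrays, and the other lay within the Tag range throughout. The 2 CXCL14 probe sets read 6.0 to 10.6 on the PBS arrays and 2.2 to 10.3 on the Dox arrays, and CXCL16 differed by -0.06 on the log2 scale. Of the 8 CXC probe sets above the Tag range on at least 3 arrays, 7 were lower in the Dox group, or 6 after quantile or cyclic loess normalization, and 2 of these reached an unadjusted limma p of at most 0.05, both of them CXCL12. The 8 probe sets stand for 6 genes, since CXCL12 and CXCL14 are counted at 2 probe sets each. Under the same limit on the Tag range, 3352 of 5863 named genes, at 1 probe set each, were lower. At an unadjusted limma p of at most 0.05, 5.92% of all probe sets were lower.

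Among the chemokine receptors, CCR1, which binds CCL5, had signals of 7.5, 23.3 and 15.0 on the PBS arrays and 17.8, 25.2 and 31.0 on the Dox arrays, with overlapping groups. CCR9, the receptor of CCL25, was within the Tag range on 3 of the 6 arrays and its log2 difference was 0.17. CCR2, the receptor of CCL2, was above the Tag range on PBS array 1 alone, at 2.6, where the highest Tag signal was 2.5. Its highest signal, 3.4, was on Dox array 2, where the highest Tag signal was 3.6, so no difference is read from it. CCR3 and CXCR6 lay within the range throughout.

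**Figure D2:**
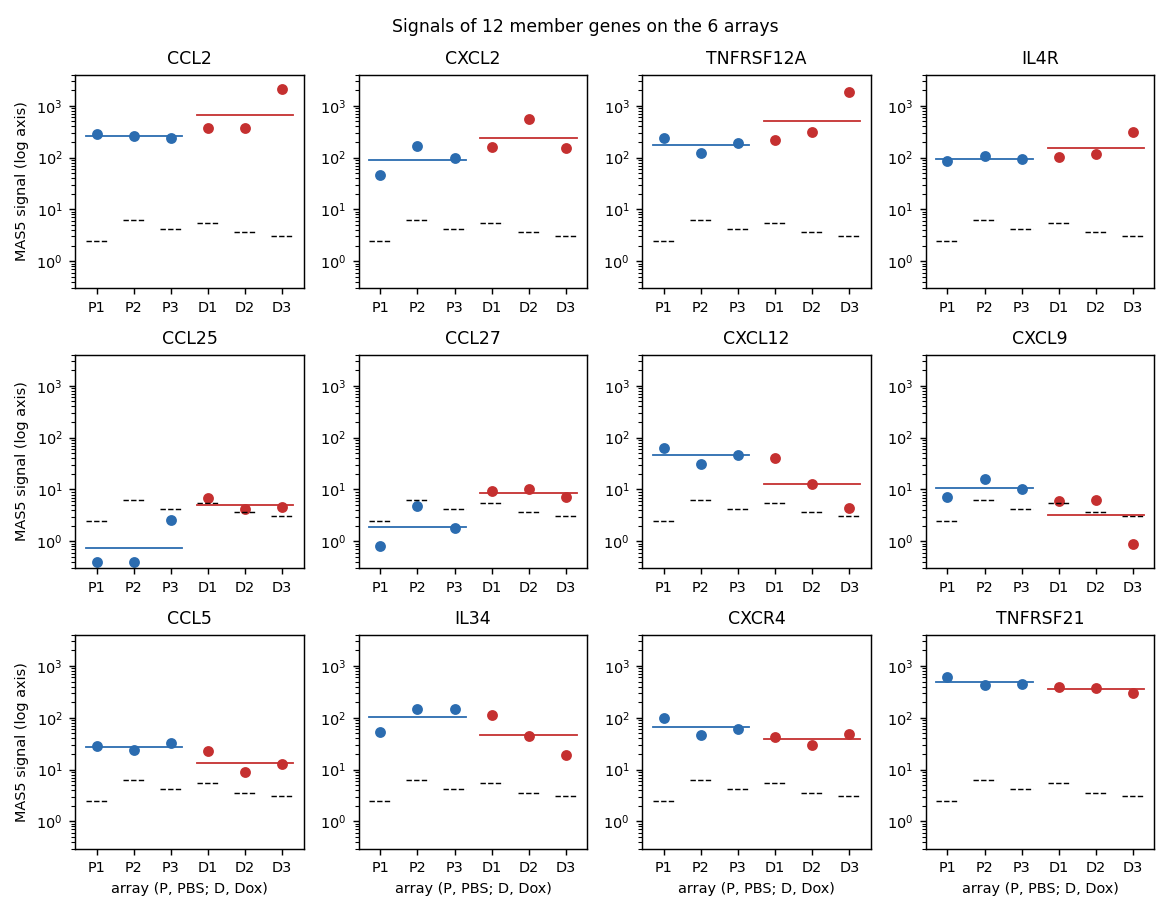
Each panel gives the MAS5 signal (vertical log axis) of 1 probe set, the brighter where a gene has 2, on PBS arrays P1 to P3 and Dox arrays D1 to D3, with the geometric mean of each group as a coloured line and the highest Tag signal of each array as a dashed line. Dox array 3 stands far above the rest for CCL2 (2060.0) and TNFRSF12A (1852.2), whereas CXCL2 is highest on Dox array 2 (551.8).

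Of the 6 probe sets of TNF family receptors, 5 were above the Tag range on every array. TNFRSF12A, or Fn14, is the receptor of the cytokine TWEAK. The dimmer of its 2 probe sets read 127.3, 65.4 and 102.4 on the PBS arrays and 134.0, 189.1 and 1435.9 on the Dox arrays. The brighter read 239.0, 120.5 and 193.3 on the PBS arrays and 213.9, 315.8 and 1852.2 on the Dox arrays. At both, Dox array 3 was far above all others. The groups did not overlap at the first, where Dox array 1 was just above the highest PBS array, and overlapped at the second. The log2 differences were 1.81 ± 0.78 and 1.5 ± 0.71 (SE, n = 3 per group), with adjusted p-values of 0.523 and 0.538 in limma and exact p-values of 0.1 and 0.2. Without Dox array 3 they were 0.75 and 0.55.

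TNFRSF21, or death receptor 6, was lower by a small amount on each Dox array. Its signal was 603.2, 437.4 and 452.9 on the PBS arrays and 393.8, 374.8 and 303.4 on the Dox arrays. The groups did not overlap. Dox minus PBS on the log2 scale was -0.47 ± 0.20 (SE, n = 3 per group), with an adjusted p of 0.523 in limma and an exact p of 0.1, and leaving out each array in turn gave -0.56 to -0.33.

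The receptors of TNF itself, TNFRSF1A and TNFRSF1B, differed by 0.38 and 0.41 on the log2 scale, and TNFRSF1A by 0.14 without Dox array 3. TNFRSF1B read 218.0, 228.7 and 211.9 on the PBS arrays and 249.0, 264.7 and 378.0 on the Dox arrays, without overlap, with an adjusted p of 0.560 in limma and a difference of 0.23 without Dox array 3. TNFRSF17, the B cell maturation antigen of plasma cells, was above the Tag range on PBS array 2 alone, at 33.3, with 0.3 to 2.1 on all other arrays.

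TNF was close to the Tag range. Its signal was 5.3, 1.1 and 7.2 on the PBS arrays and 6.0, 1.2 and 4.9 on the Dox arrays, above the Tag range on 4 of the 6. The log2 difference was -0.08 ± 0.91 (SE, n = 3 per group), with an interval of -2.15 to 1.98 that leaves room for a wide range of differences, and its sign turned under quantile normalization.

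The probe sets of TNFSF13, the B cell survival factor APRIL, went opposite ways. The dimmer read 6.7, 9.8 and 5.2 on the PBS arrays and 4.2, 0.6 and 4.3 on the Dox arrays. The brighter read 28.1, 30.4 and 27.7 on the PBS arrays and 32.8, 31.6 and 39.6 on the Dox arrays. The groups did not overlap at either. The log2 differences were -1.66 ± 0.82 and 0.26 ± 0.27 (SE, n = 3 per group), with adjusted p-values of 0.545 and 0.743 in limma, so no direction is given for the gene. The first was -0.72 without Dox array 2, which lay within the Tag range at 0.6. The death ligand TNFSF10 and the costimulatory ligand TNFSF4 were above the Tag range on at most 2 arrays.

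NFKBIA encodes the inhibitor of NF-kappaB that is made when the pathway is active. Its signal was 182.8, 421.5 and 400.7 on the PBS arrays and 459.5, 369.4 and 376.6 on the Dox arrays. PBS array 1 was low and the other 5 arrays were close to each other. On the log2 scale, Dox minus PBS was 0.35 ± 0.32 (SE, n = 3 per group), with an adjusted p of 0.715 in limma, and it was -0.04 without PBS array 1. TNFAIP1 differed by -0.23, the TNFAIP8L2 probe sets by -0.28 and -0.41, and the brighter TNFAIP8 probe set by -0.61 on the log2 scale (-0.38 without Dox array 3). TNFAIP8 read 9.4, 7.7 and 8.0 on the PBS arrays and 7.2, 5.7 and 4.0 on the Dox arrays, without overlap, with an adjusted p of 0.645 in limma. TNFAIP6 was within the Tag range on all 6 arrays.

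The alarm cytokines of the IL1 family were dim. IL1B, the main secreted form, read 7.1, 13.4 and 5.5 on the PBS arrays and 6.7, 5.8 and 14.6 on the Dox arrays at its brighter probe set, with overlapping groups and a log2 difference of 0.04. IL1A, which lies next to IL1B, was within the Tag range throughout at 1 probe set and read 3.7 to 4.0 on the PBS arrays and 2.7 to 3.8 on the Dox arrays at the other. Their receptor IL1R1 read 23.6 to 28.9 on the PBS arrays and 14.7, 24.1 and 90.7 on Dox arrays 1 to 3 at its brighter probe set, so that Dox array 3 alone stood above the rest and the log2 difference turned from 0.31 to -0.45 without it.

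IL18 read 30.3, 14 and 28.3 on the PBS arrays and 25.2, 10.3 and 7.4 on the Dox arrays, with a log2 difference of -0.88. Its soluble inhibitor IL18BP had signals of 89.5, 108.6 and 70.9 on the PBS arrays and 106.9, 80.5 and 166.5 on the Dox arrays. Both overlapped between the groups. The log2 difference of IL18BP was 0.35 ± 0.31 (SE, n = 3 per group), with an adjusted p of 0.706 in limma. Without Dox array 3 it was 0.07 for IL18BP and -0.51 for IL18.

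In the IL6 family, IL11RA, the receptor of IL11, was the only gene above the Tag range on at least 3 arrays. Its signal was 416.7, 507.5 and 495.8 on the PBS arrays and 482.2, 574.8 and 456.8 on the Dox arrays. The groups overlapped widely. Dox minus PBS on the log2 scale was 0.09 ± 0.18 (SE, n = 3 per group), with an interval of -0.32 to 0.50 and an adjusted p of 0.880 in limma. SOCS3 lay within the Tag range on all 6 arrays, at 0.1 to 0.5, so no level is given for it. IL6 read 0.9, 3.1 and 1.4 on the PBS arrays and 1.2, 2.0 and 6.8 on the Dox arrays, above the Tag range on Dox array 3 only.

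IL4R is the receptor chain that IL4 and IL13 share. Its brighter probe set read 85.9, 105.9 and 92.3 on the PBS arrays and 104.1, 119.2 and 304.9 on the Dox arrays. Dox array 3 was again far above the rest, and Dox array 1 lay inside the PBS range. The log2 difference was 0.72 ± 0.39 (SE, n = 3 per group), with an adjusted p of 0.569 in limma, and it was 0.24 without Dox array 3. The other IL4R probe set was above the Tag range on Dox array 3 alone, at 4.3. IL13RA1, which pairs with IL4R, read 10.9, 11.1 and 7.0 on the PBS arrays and 12.6, 13.1 and 18.1 on the Dox arrays, without overlap, with an adjusted p of 0.613 in limma and a log2 difference of 0.61, or 0.39 without PBS array 3. Their ligands IL4 and IL13 lay within the Tag range throughout.

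IL27RA read 29.0, 15.4 and 28.1 on the PBS arrays and 18.6, 11.6 and 6.0 on the Dox arrays, with overlapping groups and a log2 difference of -1.09 (adjusted p of 0.528 in limma), or -0.66 without Dox array 3. The common gamma chain IL2RG and the IL10 receptor chain IL10RB differed by -0.38 and -0.12.

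IL34 is a ligand of the macrophage receptor CSF1R. Its signal was 53.0, 150.9 and 146.7 on the PBS arrays and 113.4, 45.3 and 19.3 on the Dox arrays. Dox arrays 2 and 3 were below every PBS array, but PBS array 1 was itself below Dox array 1. On the log2 scale, Dox minus PBS was -1.19 ± 0.65 (SE, n = 3 per group), with an adjusted p of 0.570 in limma and an exact p of 0.2, and it was -0.56 without Dox array 3. IL15, which sustains NK and memory T cells, and IL16 differed by -0.05 and -0.22 on the log2 scale. IL10, an anti-inflammatory cytokine, read 6.3 to 11.4 on the PBS arrays and 2.0 to 7.8 on the Dox arrays, with overlapping groups. IL12A and IL21 reached an unadjusted limma p of at most 0.05 with lower values in the Dox group, but every signal of either was within the Tag range, so no difference is read from them. The neutrophil growth factor CSF3 read 0.9, 2.2 and 3.9 on the PBS arrays and 3.0, 4.7 and 3.1 on the Dox arrays, above the Tag range on Dox array 2 only.

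**Figure D3:**
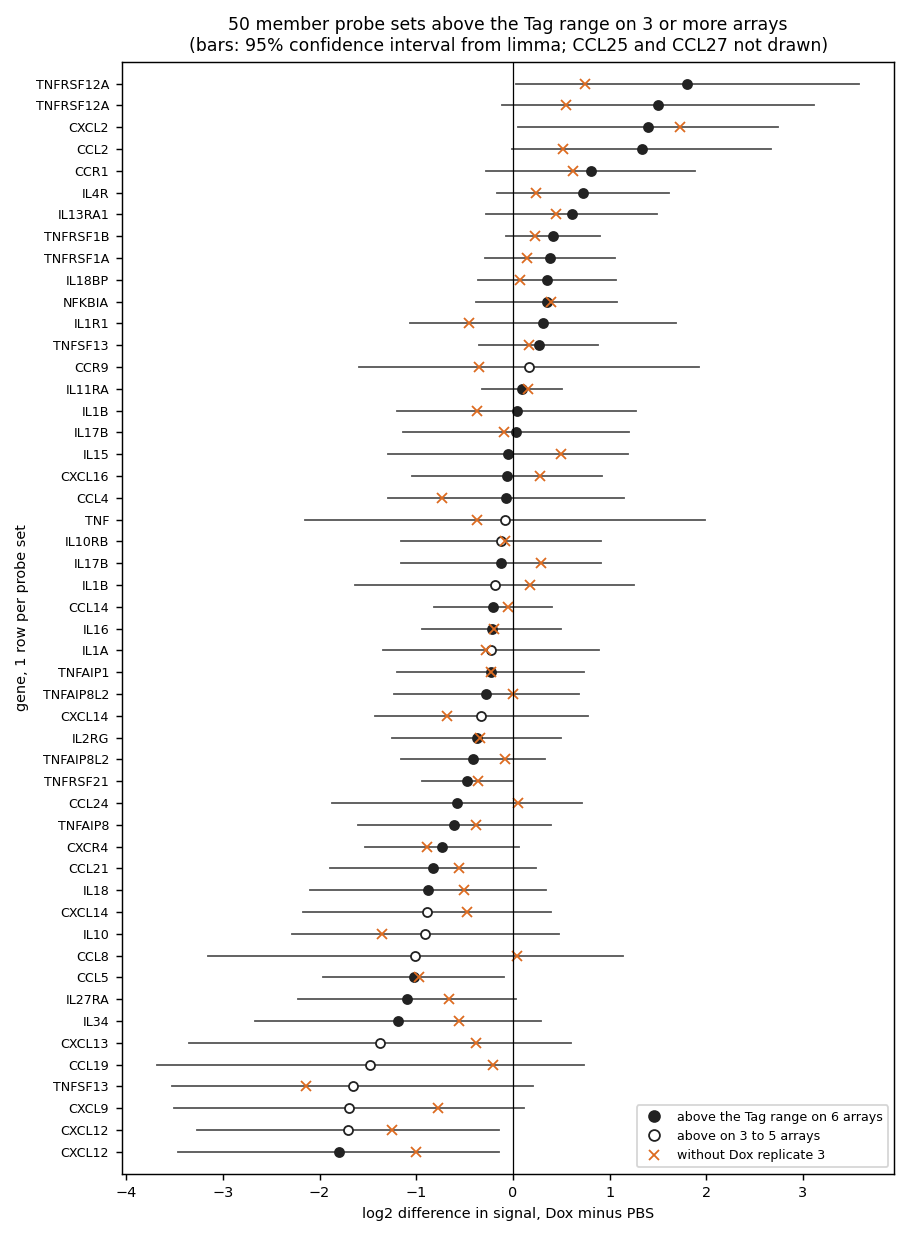
Each row is 1 member probe set above the Tag range on at least 3 arrays, with its log2 difference in signal, Dox minus PBS (horizontal axis), as a circle and the 95% confidence interval from limma as a bar, and the difference without Dox array 3 as a cross. CCL25 and CCL27, measured in the Dox group alone, are not drawn. Most bars cross 0, and the crosses of CCL2 (0.51), TNFRSF12A (0.75 and 0.55) and CXCL12 (-1.0 and -1.25) lie closer to 0 than their circles.

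The Dox arrays were unlike each other for the members. Over the 52 member probe sets above the Tag range on at least 3 arrays, the median SD of the log2 signal was 0.47 among the PBS arrays and 0.73 among the Dox arrays, and the SD was larger in the Dox group for 37 of them (71.2%, against 68.2% of all 17069 probe sets with the same limit). Dox array 3 gave the highest of the 6 signals for 14 and the lowest for 20 of the 52. It was at either extreme for 65.4% of them, against 59.4% of all probe sets with the limit. Among the 36 probe sets above the Tag range on all arrays, it lay furthest above the PBS mean for TNFRSF12A, CCL2, IL1R1 and IL4R, and furthest below it for CXCL12, IL34 and IL27RA.

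Some members were above the Tag range on Dox array 3 alone. These were IL6, CXCL8, LIF, CCR7, IL18R1 and the dimmer IL4R probe set. Array 3 had one of the lower Tag ranges, with a highest signal of 3.1, so a low signal passed more easily there than on 4 of the other arrays. The signals of IL6 (6.8) and CXCL8 (9.7) on Dox array 3 were also above the highest Tag signal of any array, 6.3.

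**Figure D4:**
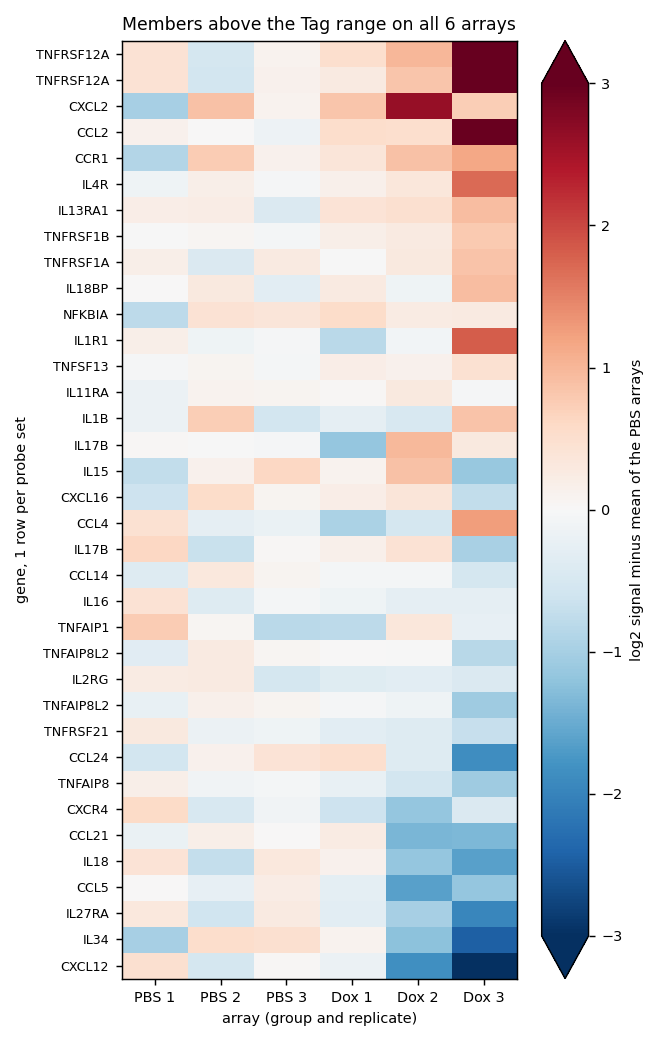
Each row is 1 of the 36 member probe sets above the Tag range on all 6 arrays, ordered by the difference between the groups, and the colour gives the log2 signal of each array minus the mean of the PBS arrays, with colours ending at 3 in either direction. The strongest colours are in the column of Dox array 3, and Dox array 1 is close to the PBS arrays for most rows.

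Genes that act downstream of these receptors were read from lists of the pathways. These lists and the cell type marker lists below were chosen with earlier results of these data known, so their counts are descriptions only. In the NF-kappaB list of receptor adaptors and pathway members, 14 of 38 genes had a probe set, and TNIP1 alone reached an unadjusted limma p of at most 0.05, higher in the Dox group (background over named genes 4.92% higher and 6.61% lower). TNIP1, an inhibitor of NF-kappaB signalling, read 239.8, 362.3 and 377.3 on the PBS arrays and 430.7, 550.1 and 518.9 on the Dox arrays, without overlap. Its log2 difference was 0.64 ± 0.23 (SE, n = 3 per group), with an adjusted p of 0.521 in limma, and 0.60 without Dox array 3. The median of the list was 0.26, with 9 genes higher and 5 lower. In the JAK-STAT list, 16 of 34 genes had a probe set and none reached that p in either direction, with a median of 0.13. None of the 14 further chemokine, interferon and TNF family genes with a probe set did so either.

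A further list held adhesion genes, acute phase genes and other known targets of TNF, IL1 or IL6. Of its 18 genes with a probe set, 5 reached an unadjusted limma p of at most 0.05, all higher in the Dox group. They were PTGS2, MYC, PTX3, HP and ZFP36, and over all named genes 4.92% were higher at this p. As this list too was chosen with earlier results of these data known, its share is a description only. PTX3, an acute phase pentraxin, read 7.9, 11.7 and 12.5 on the PBS arrays and 17.0, 29.3 and 108.0 on the Dox arrays. MYC, a growth-related transcription factor, read 62.7, 143.4 and 81.2 on the PBS arrays and 141.6, 336.2 and 1044.5 on the Dox arrays. Dox array 3 was the highest for both. PTGS2, the inducible cyclooxygenase, was above the Tag range on 1 array only. HP, the haemoglobin-binding protein haptoglobin, was above it on Dox arrays 2 and 3 only, at 84.5 and 15.9, and its groups overlapped, so no difference is read from either gene. The median of the list was 0.57, against -0.07 for all named genes, and no gene of any of these lists passed the adjusted threshold.

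Markers of other cell types were read beside some of the members, and whether they varied together was not tested. Of 9 neutrophil markers with a probe set, 7 were higher in the Dox group and 6 reached an unadjusted limma p of at most 0.05, also with 7 higher under both other scalings. Over all named genes 4.92% were higher at this p, and MMP9 and S100A12 among the 6 were above the Tag range on 2 arrays each. Their summed signal was 60.8 to 69.2 on the PBS arrays and 128.0, 2161 and 547.8 on Dox arrays 1 to 3. S100A9, a calcium-binding protein of neutrophils and monocytes, read 9.2, 7.8 and 27.5 on the PBS arrays and 56.9, 681.5 and 185.9 on the Dox arrays. The protease gene ELANE was within the Tag range throughout, which gives no level. The array highest in these markers, Dox array 2, was also the highest for the neutrophil chemokine CXCL2, but CXCL2 was higher on PBS array 2 (164.3) than on Dox arrays 1 and 3. The part of neutrophils in the CXCL2 result was not tested.

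The 7 fibroblast markers with a probe set were all lower in the Dox group, under every scaling, and 4 reached an unadjusted limma p of at most 0.05, against 6.61% of all named genes lower at this p. Their summed signal was 4754, 2862 and 3496 on the PBS arrays and 2812, 1455 and 968.4 on the Dox arrays. DCN, the matrix proteoglycan decorin, read 1712.9, 1450.3 and 1861.7 on the PBS arrays and 1231.5, 853.1 and 661.8 on the Dox arrays. The 2 arrays with the lowest sums, Dox arrays 2 and 3, also had the lowest signals of CXCL12 at both probe sets and of IL34. PBS array 1 had the highest sum and the highest signal, 63.8, at the brighter CXCL12 probe set. It was below Dox array 1 for IL34 (53.0 against 113.4) and at the dimmer CXCL12 probe set (8.4 against 11.5). Dox array 3 was the lowest array for 37.2% of all probe sets above the Tag range on at least 3 arrays. The part of fibroblasts in these results was not tested. Of the 10 endothelial markers, 7 were lower in the Dox group, or 6 under either other scaling, and TIE1 and CDH5 reached an unadjusted limma p of at most 0.05.

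Macrophage and general leukocyte markers gave ranges that overlapped between the groups. The 10 macrophage markers summed to 1069 to 1416 on the PBS arrays and to 1049.6 to 1449 on the Dox arrays, and none reached an unadjusted limma p of at most 0.05. Dox array 3, on which the monocyte chemokine CCL2 was highest, had the lowest macrophage sum, 1049.6, close to the 1068.9 of PBS array 1. Of the 10 macrophage markers, 6 were higher and 4 lower in the Dox group, with a median log2 difference of 0.16. That median was 0.33 under quantile and 0.34 under cyclic loess normalization. The part of macrophages in the CCL2 result was not tested. The 9 pan-leukocyte markers summed to 306.6 to 364.1 on the PBS arrays and to 319.9 to 388.1 on the Dox arrays. Of 10 T and NK cell markers, 4 were above the Tag range on at least 3 arrays, and CD3D lay within it on all, as did the T cell cytokines named above. Of 2 B cell markers with a probe set 1 was above the Tag range on at least 3 arrays, and the 4 red cell genes were all lower in the Dox group without reaching an unadjusted limma p of at most 0.05.

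**Figure D5:**
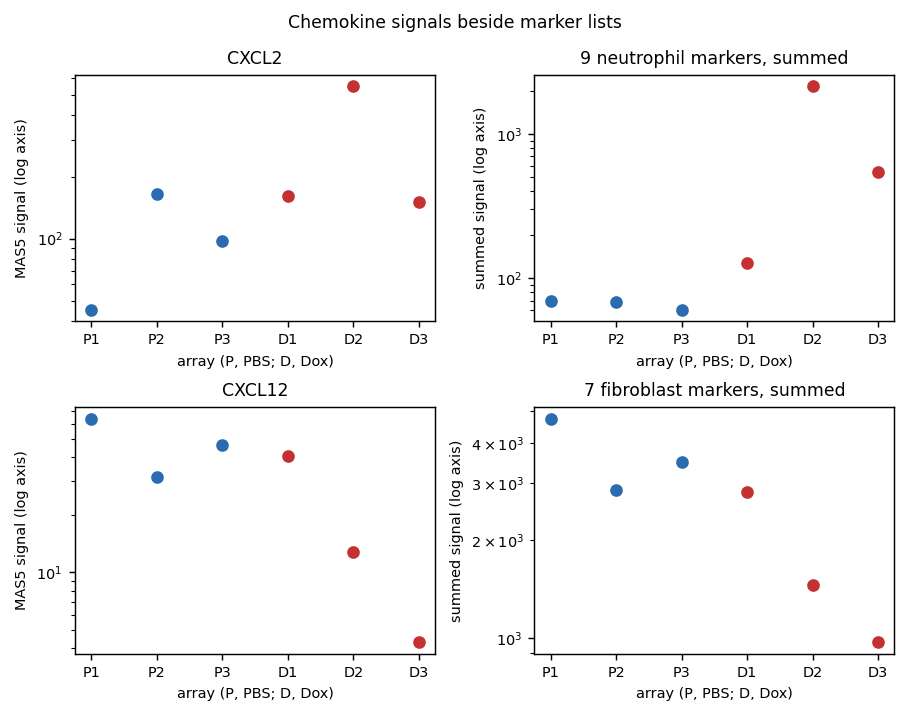
The upper panels give the MAS5 signal of CXCL2 and the summed signal of 9 neutrophil markers, and the lower panels the signal of the brighter CXCL12 probe set and the summed signal of 7 fibroblast markers, on PBS arrays P1 to P3 and Dox arrays D1 to D3 (vertical log axes). Dox array 2 is the highest in both upper panels (551.8 and 2161), and Dox array 3 the lowest in both lower panels (4.3 and 968.4).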

How the data were processed

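The deposited values are intensities: MAS5 signals, on a linear scale, that the authors computed in GCOS, version 1.4 in the submitters' processing notes. The 2% trimmed mean was 100.03 to 100.04 on every array. Annotation and RefSeq neighbours (Sscrofa11.1) came from the platform table and RefSeq. Signals of 0 (311 probe sets) were raised to 0.1, log2 was taken, and limma 3.58.1 in R 4.3.3 (lmFit, eBayes with an intensity trend) was fitted over 23999 probe sets that are not array controls, with Benjamini-Hochberg adjustment. Scripts were tested on simulated data.

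The members were taken by a fixed rule on gene symbols. That rule, the lists and the alternatives were set with earlier results of these data known. Named with every value were members above the Tag range on at least 3 arrays with an unadjusted p of at most 0.05, or with groups apart and a fold of at least 2, the brightest of each role, and NFKBIA, SOCS3 and TNF. Others given by value were chosen after their values were seen. List genes and medians used the brightest probe set by geometric mean. The number of arrays limits the precision. Sequences were not used here. Figures were drawn with matplotlib 3.10.9.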

Additional observations from a re-analysis of the deposited data

How the results depend on the processing

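No member passed the adjusted threshold under any alternative run: quantile and cyclic loess normalization, an offset of 16, signals raised to the highest Tag signal, a filter on dim probe sets, no intensity trend, array weights, the replicate block, the methods' t-test, and leaving out each array. Over the whole array 4 probe sets were called with signals raised to the highest Tag signal and 0 to 14 with an array left out, the 14 without Dox array 1. The count of members with a fold of at least 2 and an unadjusted p of at most 0.05 was 9, and 1 with the offset, 15 with array weights, 4 by the methods' t-test and 5 to 19 with an array left out, lowest without PBS array 3 or Dox array 3 and highest without Dox array 1. The count of members without overlap, 15, was 22 to 29 with an array left out, which the smaller groups make easier to meet. The median of member genes, -0.13, was 0.016 under quantile and 0.0043 under cyclic loess normalization and ranged from -0.27 without Dox array 2 to -0.052 with an array left out. TNF turned to 0.028 under quantile normalization, and was -0.91 to 0.64 with an array left out. The dimmer IL4R probe set turned to 0.012 with the offset and 0.12 with signals raised to the highest Tag signal, and was -0.81 to 0.25 with an array left out. SOCS3 turned to -0.036 with signals raised to the Tag signal. NFKBIA was -0.040 to 0.56 and IL11RA -0.0068 to 0.16 with an array left out. The cause of these changes was not tested.

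Whether the replicate numbers pair the piglets is not known, and the study describes its failing and non-failing samples as pairs. After the mean of each group was taken off, same-numbered arrays correlated at -0.05, 0.06 and -0.11. Arrays with different numbers correlated at -0.095 to 0.109. With 3 arrays per group these values cannot settle whether there was a pairing. With the replicate block, 9 members met the unadjusted rule, 7 higher and 2 lower. Signals near the Tag range limit what can be said of dim members.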
